A study of Mus musculus with 6 samples.

Results

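Collagen genes were taken from a count table of hemibrain RNA from newborn mice as every gene symbol made of Col, a type number, the letter a and a chain number. This rule found 44 of the 24391 symbols, and they were set apart as 11 fibrillar collagens, 8 collagens of basement membranes and 25 other collagens. The study compared 3 hemibrains labelled Celf2 -/- (replicates 2, 4 and 10) with 3 labelled Celf2 +/- (replicates 6, 7 and 11), all taken at postnatal day 0. Celf2 encodes an RNA-binding protein, and the Celf2 +/- pups keep 1 allele of it, so the comparison is of null with heterozygous brains and includes no wild type. The labels do not give litter, sex, strain or how the allele was made, so p-values measure the spread between these samples only.

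Collagens are secreted or membrane-bound proteins whose chains wind into a helix of repeated glycine triplets and then assemble into fibrils, nets or filaments. In brain tissue they are sparse between neurons and are known mainly from the meninges, from fibroblasts around vessels and from the basement membranes under the pia and around endothelium. Chains of one type are made in fixed partnerships, such as the alpha1 and alpha2 chains of types I and IV. In whole hemibrain RNA, fewer cells of a type and less RNA per cell cannot be told apart.

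Library totals lay between 28831997 and 36531980 counts, and collagens took 0.147% to 0.175% of the counts in Celf2 -/- and 0.130% to 0.198% in Celf2 +/- libraries. The ribosomal precursor Rn45s held 11.8% of the counts in Celf2 -/- replicate 2 and at most 1.27% in the others. Celf2 itself was at 448, 390.0 and 331 CPM in Celf2 -/- replicates 2, 4 and 10, against 459, 403 and 362 CPM in Celf2 +/- replicates 6, 7 and 11 (log2 fold change -0.07, SE 0.12, 95% interval -0.32 to 0.19, adjusted p = 0.955, edgeR). The groups overlapped. A gene total can include reads of exons that a null allele keeps, so it gives no check of the genotype labels.

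Of the 44 collagens, 43 passed the filter on low counts. Col10a1, a collagen of hypertrophic cartilage, did not, with 4 to 14 counts per library. Levels below are CPM, a gene's counts relative to the TMM-scaled total of its library, and levels are compared between genes only as CPM per kb of the deposited gene length. Type IV led: Col4a1 averaged 47.2 and Col4a2 37.5 CPM per kb over the 6 libraries and together held 27.9% of the summed collagen CPM per kb. Col1a2 (25.7), Col9a3 (22.9), Col3a1 (22.3), Col26a1 (18.9), Col9a2 (16.8) and Col1a1 (14.8 CPM per kb) followed, and these 8 genes held 67.8%. The lowest were Col6a6 (0.188), Col17a1 (0.102) and Col10a1 (0.0860 CPM per kb). The plot of levels per length shows high and low chains in each class and a wide spread of type I and III chains among the Celf2 +/- libraries.

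**Figure D1:**
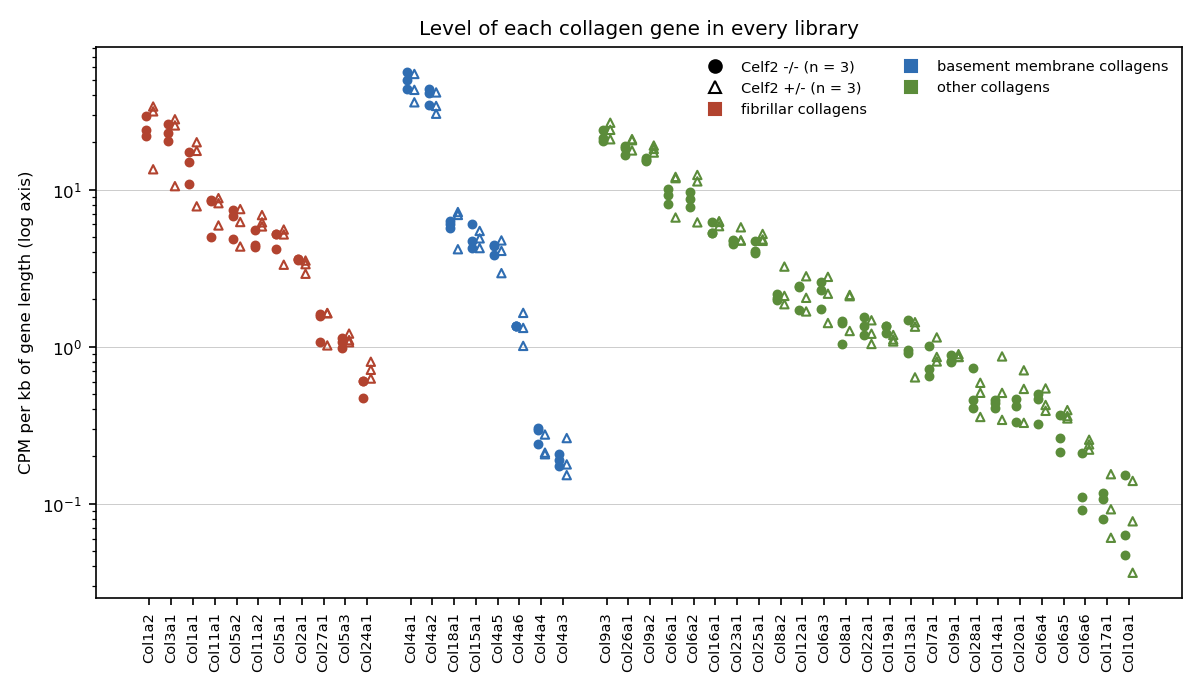
Level of each of the 44 collagen genes (CPM per kb of gene length, log axis) in the 3 Celf2 -/- (filled circles) and 3 Celf2 +/- libraries (open triangles), by class. Col4a1 and Col4a2 stand highest, and 1 Celf2 +/- library lies far below the others for Col1a1, Col1a2 and Col3a1.

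No collagen was called between the genotypes. In edgeR's quasi-likelihood test, adjusted over 15925 genes, 0 of 43 collagens passed at 0.05, where 1 gene in all (0.00628% of those tested) did. DESeq2 and limma-voom also called 0 collagens. At an unadjusted p of 0.05, 3 collagens had lower and 0 higher values in Celf2 -/- libraries. These 3 are 6.98% of the members, against 2.93% of all genes tested with lower and 4.13% with higher values. Taken in either direction, the share was 6.98% of the members and 7.06% of all genes tested, so the total lay near the background. Values did not overlap between the genotypes for 4 collagens that were lower in Celf2 -/- libraries (9.30% of members) and 2 that were higher (4.65%). Over all genes tested these shares were 6.47% and 6.21%, so the counts without overlap lay near the background.

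Of the log2 fold changes of 43 collagens, 29 (67.4%) were negative and 14 positive in edgeR, against 50.3% negative over all genes tested. The count depended on the method: 22 of 43 were negative with limma-voom and 34 with edgeR scaled by library size alone. By class, 7 of 11 fibrillar collagens, 2 of 8 basement membrane collagens and 20 of 24 other collagens were negative. Their median log2 fold changes were -0.06, 0.07 and -0.13, beside -9.31e-04 over all genes. The fibrillar median turned positive with limma-voom (0.03) and without Celf2 -/- replicate 10 (0.15), Celf2 +/- replicate 7 (0.09) or Celf2 +/- replicate 11 (0.05). That of basement membrane collagens turned negative with library size alone (-0.02, above the -0.09 of all genes) and without Celf2 +/- replicate 6 (-0.01). Of the tested collagens, 19 were negative without Celf2 +/- replicate 7, 21 without Celf2 -/- replicate 10, and 33 without Celf2 +/- replicate 6 or Celf2 -/- replicate 2. The difference between classes was not tested. The fold-change plot shows the negative values of the other collagens and the wide intervals of types I and III.

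**Figure D2:**
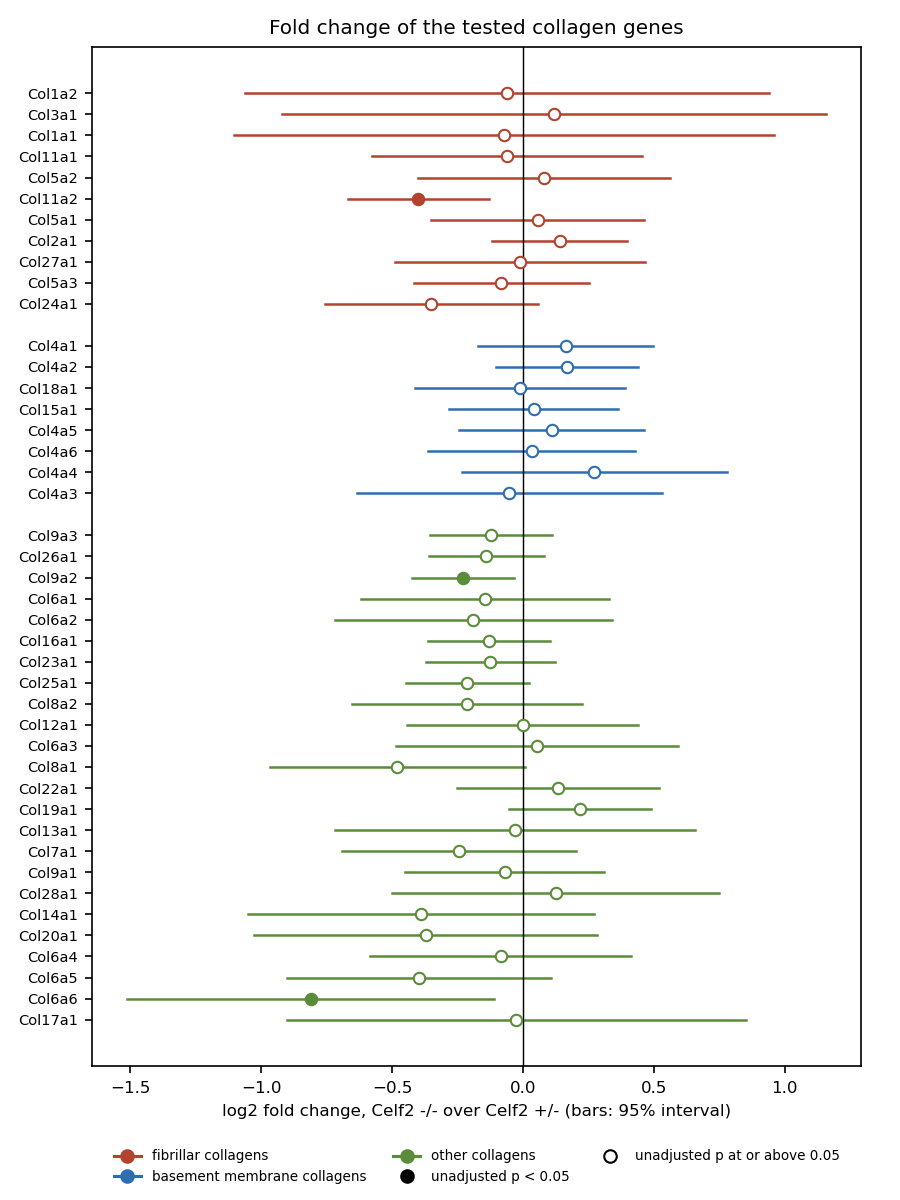
Log2 fold change, Celf2 -/- over Celf2 +/-, of the 43 tested collagens with 95% intervals from edgeR, by class and in order of level per length. Filled points mark Col11a2, Col9a2 and Col6a6, the 3 with an unadjusted p under 0.05. Intervals of Col1a1, Col1a2 and Col3a1 reach about 1 log2 unit to either side.

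Among fibrillar collagens, type I and III chains set most of the total. Col1a1 encodes the alpha1 chain of type I, the main fibril of connective tissue. It was at 70.4, 81.5 and 50.8 CPM in Celf2 -/- replicates 2, 4 and 10, against 36.7, 94.0 and 82.8 CPM in Celf2 +/- replicates 6, 7 and 11 (log2 fold change -0.07, SE 0.40, 95% interval -1.11 to 0.96, adjusted p = 0.990, edgeR). Col1a2, the partner chain, was at 124, 151 and 113 CPM in Celf2 -/- replicates 2, 4 and 10, against 69.2, 174 and 162 CPM in Celf2 +/- replicates 6, 7 and 11 (log2 fold change -0.06, SE 0.38, 95% interval -1.06 to 0.94, adjusted p = 0.991). For both, the Celf2 -/- libraries lay between Celf2 +/- replicate 6, the lowest of all 6, and Celf2 +/- replicates 7 and 11, the highest.

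Col3a1 encodes the chain of type III, a fibril of vessel walls and meninges and the ligand of the receptor Adgrg1 (GPR56) in developing mouse cortex. It was at 128, 145 and 114 CPM in Celf2 -/- replicates 2, 4 and 10, against 58.5, 156 and 142 CPM in Celf2 +/- replicates 6, 7 and 11 (log2 fold change 0.12, SE 0.40, 95% interval -0.92 to 1.16, adjusted p = 0.982). Celf2 +/- replicate 6 was again the lowest. Adgrg1 was at 192, 200.1 and 154 CPM in Celf2 -/- replicates 2, 4 and 10, against 199, 172 and 162 CPM in Celf2 +/- replicates 6, 7 and 11 (log2 fold change 0.04, adjusted p = 0.975), and its groups overlapped as well.

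The proportion of the 2 type I chains varied less than their levels, which ranged 2.56-fold (Col1a1) and 2.51-fold (Col1a2) across the libraries. Per kb, Col1a1 over Col1a2 was 0.623, 0.591 and 0.491 in Celf2 -/- replicates 2, 4 and 10, against 0.581, 0.592 and 0.560 in Celf2 +/- replicates 6, 7 and 11, a range of 1.27-fold. Col1a2 over Col3a1 was 1.04, 1.13 and 1.07 in Celf2 -/- replicates 2, 4 and 10, against 1.28, 1.21 and 1.23 in Celf2 +/- replicates 6, 7 and 11. This ratio did not overlap between the genotypes, being lower in each Celf2 -/- library. Of the several ratios computed for pairs of genes, it was the only one without overlap. It was computed after the values of both genes were seen and was not tested.

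Col5a1 and Col5a2, chains of type V, which starts fibrils of type I, were at 43.7, 44.1 and 35.0 CPM in Celf2 -/- and 27.9, 46.8 and 43.5 CPM in Celf2 +/- libraries and at 49.2, 44.8 and 32.2 CPM in Celf2 -/- and 28.7, 49.7 and 41.1 CPM in Celf2 +/- libraries. Their log2 fold changes were 0.06 and 0.08, and Celf2 +/- replicate 6 was again the lowest library for each. Col5a3 (log2 fold change -0.08) and Col27a1 (-0.01), a minor fibrillar chain, overlapped between the groups.

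Type XI and type II are known as the thin fibrils of cartilage. Col11a2, which encodes the alpha2 chain of type XI, had the smallest p of all collagens. It was at 31.0, 24.9 and 24.3 CPM in Celf2 -/- replicates 2, 4 and 10, against 32.7, 38.5 and 34.7 CPM in Celf2 +/- replicates 6, 7 and 11 (log2 fold change -0.40, SE 0.12, 95% interval -0.67 to -0.13, adjusted p = 0.527, edgeR; unadjusted p = 0.00777). All 3 Celf2 -/- libraries lay below all 3 Celf2 +/- libraries, but the narrowest gap was small, and the gene did not pass over all genes tested. Levels averaged 26.8 ± 3.72 CPM in Celf2 -/- and 35.3 ± 2.99 CPM in Celf2 +/- libraries (SD, n = 3 each). Its unadjusted p was under 0.05 in 14 of 14 alternative settings, with log2 fold changes of -0.52 to -0.33 when single libraries were left out. These settings reuse the same libraries, and the gene was picked for its smallest p. The count is therefore no separate support, nor are those of Col9a2 and Col6a6 below. Col11a2 passed adjustment in none of the settings. Its partner Col11a1 was at 62.3, 61.2 and 36.2 CPM in Celf2 -/- replicates 2, 4 and 10, against 59.6, 64.2 and 43.0 CPM in Celf2 +/- replicates 6, 7 and 11 (log2 fold change -0.06, SE 0.22, 95% interval -0.58 to 0.45, adjusted p = 0.982), so the groups overlapped.

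Col2a1, the chain of type II, was at 18.5, 18.6 and 18.4 CPM in Celf2 -/- replicates 2, 4 and 10, against 18.1, 14.9 and 17.2 CPM in Celf2 +/- replicates 6, 7 and 11 (log2 fold change 0.14, SE 0.12, 95% interval -0.12 to 0.40, adjusted p = 0.879). It was higher in each Celf2 -/- library, though Celf2 +/- replicate 6 lay just below them. Col24a1, a minor fibrillar chain, was at 4.33, 3.38 and 4.28 CPM in Celf2 -/- replicates 2, 4 and 10, against 5.08, 5.72 and 4.47 CPM in Celf2 +/- replicates 6, 7 and 11 (log2 fold change -0.35, SE 0.18, 95% interval -0.76 to 0.06, adjusted p = 0.766), lower in each Celf2 -/- library. Markers of cartilage and bone were near 0: 7 of 10 were tested, their sum lay at 5.79 to 7.61 CPM in Celf2 -/- and 5.75 to 7.91 CPM in Celf2 +/- libraries, and Acan, the main proteoglycan of cartilage, was at 1.46, 2.90 and 1.67 CPM in Celf2 -/- and 2.07, 2.15 and 1.82 CPM in Celf2 +/- libraries.

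The 250 bases before the RefSeq start of Col11a2, the collagen with the smallest p, and of Col3a1, which ranged most widely across libraries among the 8 most abundant collagens, are printed to show how their upstream sequences differ. They come from RefSeq, GRCm38.p6, plus strand, at chr17:34038888-34039137 and chr1:45311288-45311537, and hold no annotated exon. Capitals mark 2 motifs searched on both strands, the GC box with the letters GGGCGG, and the TATA box with the letters TATAAA. They do not overlap each other.
Col11a2: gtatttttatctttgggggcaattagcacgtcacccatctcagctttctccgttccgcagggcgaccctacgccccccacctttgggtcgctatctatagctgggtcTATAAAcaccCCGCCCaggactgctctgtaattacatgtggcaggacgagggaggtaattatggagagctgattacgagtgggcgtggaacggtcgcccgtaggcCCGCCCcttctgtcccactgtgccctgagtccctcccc
Col3a1: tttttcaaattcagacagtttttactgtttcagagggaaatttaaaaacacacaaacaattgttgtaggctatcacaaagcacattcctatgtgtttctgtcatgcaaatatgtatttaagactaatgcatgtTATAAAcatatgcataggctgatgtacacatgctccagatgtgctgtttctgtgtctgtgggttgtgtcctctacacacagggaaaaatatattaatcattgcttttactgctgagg
The Col11a2 stretch holds 1 TATAAA and 2 GC boxes and is 57.6% G or C. That of Col3a1 holds 1 TATAAA and 0 GC boxes and is 35.2% G or C. Over the 27025 genes with such a stretch, 13.0% hold TATAAA and 32.9% a GC box. A match is a run of letters and not a measured site.

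Basement membrane collagens were the class with the most positive fold changes, and none passed. Col4a1 and Col4a2 encode the chains of the type IV net found in all basement membranes, including those of brain vessels. Col4a1 was at 370.3, 330.1 and 288 CPM in Celf2 -/- replicates 2, 4 and 10, against 238, 360.0 and 285 CPM in Celf2 +/- replicates 6, 7 and 11 (log2 fold change 0.16, SE 0.15, 95% interval -0.17 to 0.50, adjusted p = 0.892). Col4a2 was at 281, 263 and 221 CPM in Celf2 -/- replicates 2, 4 and 10, against 195, 267 and 219 CPM in Celf2 +/- replicates 6, 7 and 11 (log2 fold change 0.17, SE 0.12, 95% interval -0.10 to 0.44, adjusted p = 0.849). The groups overlapped, with Celf2 -/- replicate 2 the highest and Celf2 +/- replicate 6 the lowest library for both genes. Without Celf2 +/- replicate 7 their log2 fold changes were 0.33 and 0.30, with an unadjusted p under 0.05 for both, and without Celf2 +/- replicate 6 they were 0.03 and 0.07. Neither passed adjustment in these fits. Per kb, Col4a1 over Col4a2 was 1.28, 1.22 and 1.26 in Celf2 -/- replicates 2, 4 and 10, against 1.18, 1.31 and 1.27 in Celf2 +/- replicates 6, 7 and 11, a range of 1.11-fold, narrower than that of either level (1.56-fold and 1.44-fold). In the GRCm38.p6 annotation these 2 genes start head to head and overlap by 85 bases, so a few reads at the starts could be counted for either.

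Col18a1, the source of the fragment endostatin, was at 36.6, 33.2 and 35.1 CPM in Celf2 -/- replicates 2, 4 and 10, against 24.2, 39.9 and 41.6 CPM in Celf2 +/- replicates 6, 7 and 11 (log2 fold change -0.01, SE 0.18, 95% interval -0.41 to 0.39, adjusted p = 0.995). Col15a1, its relative at the border of basement membranes, was at 32.1, 25.1 and 22.7 CPM in Celf2 -/- replicates 2, 4 and 10, against 29.0, 26.0 and 22.6 CPM in Celf2 +/- replicates 6, 7 and 11 (log2 fold change 0.04, SE 0.15, 95% interval -0.28 to 0.36, adjusted p = 0.982). The groups overlapped for both, and Celf2 +/- replicate 6 was low for Col18a1 but not for Col15a1. Col4a5 and Col4a6 had log2 fold changes of 0.11 and 0.03. Col4a3 and Col4a4, known from the filter membrane of the kidney, were low in all libraries. Col4a3 was at 1.77, 1.63 and 1.496 CPM in Celf2 -/- and 1.53, 2.26 and 1.31 CPM in Celf2 +/- libraries and Col4a4 at 2.36, 1.87 and 2.31 CPM in Celf2 -/- and 1.61, 2.15 and 1.65 CPM in Celf2 +/- libraries, with log2 fold changes of -0.05 and 0.27 and overlapping groups.

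**Figure D3:**
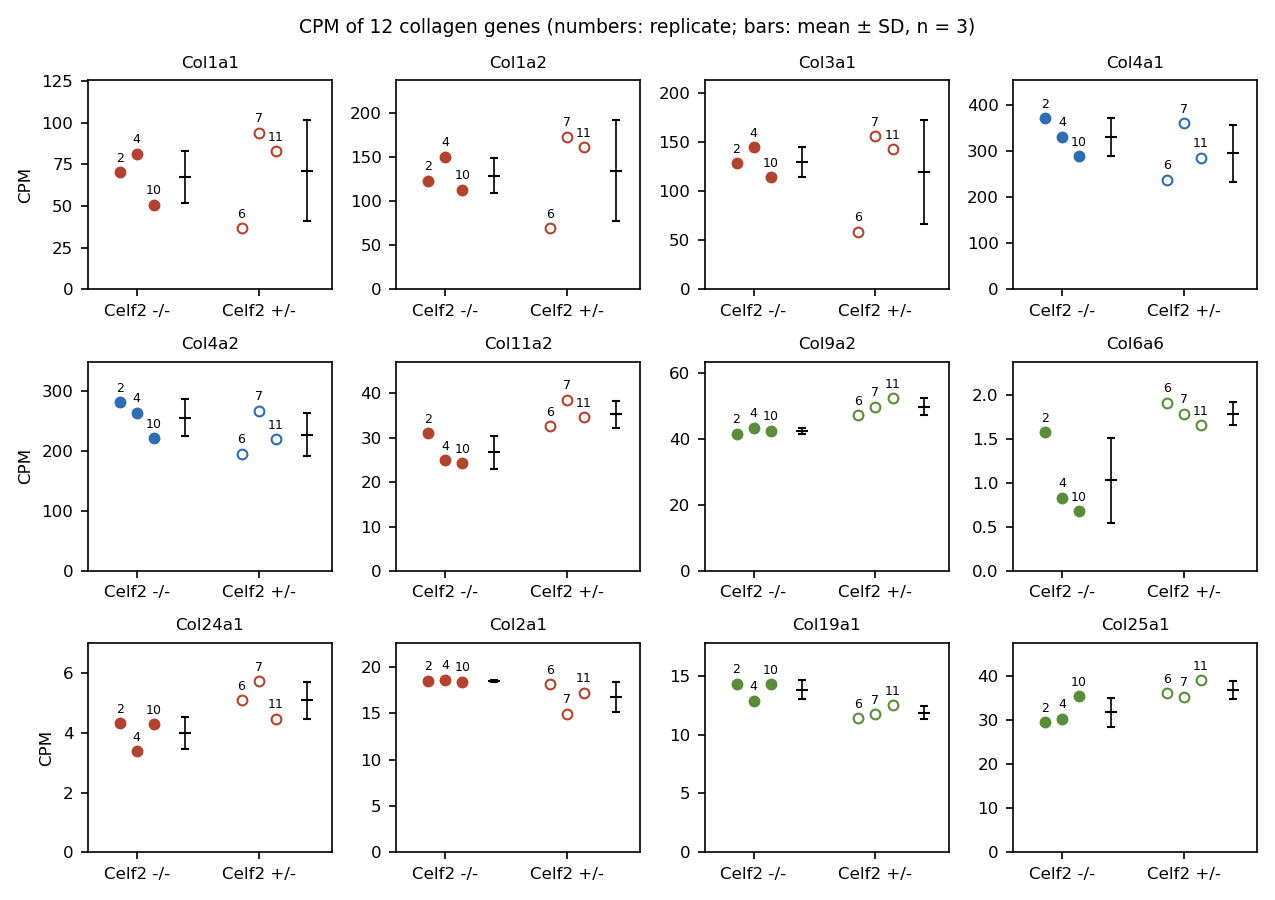
CPM of 12 collagens in each library (points, numbered by replicate), with mean ± SD (n = 3) beside them, Celf2 -/- left (filled) and Celf2 +/- right (open). Celf2 +/- replicate 6 is the lowest point for Col1a1, Col1a2, Col3a1, Col4a1 and Col4a2, whereas Col11a2, Col9a2, Col6a6 and Col24a1 lie lower in all 3 Celf2 -/- libraries. Col2a1 and Col19a1 lie higher in all 3.

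Of the other collagens, type IX was among the most abundant. Its chains sit on the surface of type II fibrils in cartilage. Col9a2 was at 41.5, 43.4 and 42.4 CPM in Celf2 -/- replicates 2, 4 and 10, against 47.2, 49.8 and 52.3 CPM in Celf2 +/- replicates 6, 7 and 11 (log2 fold change -0.23, SE 0.09, 95% interval -0.42 to -0.04, adjusted p = 0.639, edgeR; unadjusted p = 0.0248). The 3 Celf2 -/- libraries lay close together and below every Celf2 +/- library. Levels averaged 42.5 ± 0.942 CPM in Celf2 -/- and 49.8 ± 2.55 CPM in Celf2 +/- libraries (SD, n = 3 each). Its unadjusted p was under 0.05 in 10 of 14 alternative settings, but not without Celf2 -/- replicate 2, Celf2 -/- replicate 10, Celf2 +/- replicate 7 or Celf2 +/- replicate 11. Its log2 fold change ran over -0.27 to -0.19 when single libraries were left out. Col9a3 was at 68.2, 58.1 and 60.7 CPM in Celf2 -/- replicates 2, 4 and 10, against 68.3, 75.8 and 59.5 CPM in Celf2 +/- replicates 6, 7 and 11 (log2 fold change -0.12, SE 0.11, 95% interval -0.36 to 0.11, adjusted p = 0.884), with overlapping groups. Col9a1 had 3.66, 3.38 and 3.30 CPM in Celf2 -/- and 3.71, 3.57 and 3.56 CPM in Celf2 +/- libraries, far below its partner chains, also per length (0.852 CPM per kb over all libraries).

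Type VI forms beaded filaments around cells. Col6a1 was at 37.0, 40.2 and 32.3 CPM in Celf2 -/- replicates 2, 4 and 10, against 26.4, 47.9 and 47.0 CPM in Celf2 +/- replicates 6, 7 and 11 (log2 fold change -0.15, SE 0.21, 95% interval -0.62 to 0.33, adjusted p = 0.946), and Col6a2 at 32.5, 36.2 and 28.7 CPM in Celf2 -/- replicates 2, 4 and 10, against 23.1, 46.2 and 42.0 CPM in Celf2 +/- replicates 6, 7 and 11 (log2 fold change -0.19, adjusted p = 0.926). Both were lowest in Celf2 +/- replicate 6 and highest in Celf2 +/- replicate 7. Without Celf2 +/- replicate 7 their log2 fold changes were -0.01 and -0.0020, without Celf2 +/- replicate 11 they were -0.02 and -0.09, and without Celf2 +/- replicate 6 they were -0.38 and -0.44. Their ratio per kb ranged 1.10-fold, against 1.81-fold and 2.00-fold for the levels. Col6a3, the large chain, was at a log2 fold change of 0.05.

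Col6a6, a relative of Col6a3, had the largest log2 fold change of the collagens and few reads, 45 counts on average. It was at 1.58, 0.830 and 0.680 CPM in Celf2 -/- replicates 2, 4 and 10, against 1.91, 1.78 and 1.65 CPM in Celf2 +/- replicates 6, 7 and 11 (log2 fold change -0.81, SE 0.32, 95% interval -1.51 to -0.11, adjusted p = 0.639; unadjusted p = 0.0272). The groups did not overlap, and the log2 fold change ran over -1.23 to -0.59 when single libraries were left out. Its unadjusted p was under 0.05 in 10 of 14 alternative settings, but not without Celf2 -/- replicate 4, Celf2 -/- replicate 10, Celf2 +/- replicate 6 or Celf2 +/- replicate 7. Its neighbours Col6a5 and Col6a4 had log2 fold changes of -0.40 and -0.09 with overlapping groups, and reads shared between these similar genes cannot be told apart here.

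Col19a1, which in mouse hippocampal interneurons takes part in synapse formation, was at 14.3, 12.9 and 14.3 CPM in Celf2 -/- replicates 2, 4 and 10, against 11.4, 11.7 and 12.5 CPM in Celf2 +/- replicates 6, 7 and 11 (log2 fold change 0.22, SE 0.12, 95% interval -0.05 to 0.49, adjusted p = 0.793). It was higher in each Celf2 -/- library. Col25a1, a membrane collagen of neurons needed for motor nerves to enter muscle in mouse, was at 29.5, 30.3 and 35.4 CPM in Celf2 -/- replicates 2, 4 and 10, against 36.0, 35.3 and 39.0 CPM in Celf2 +/- replicates 6, 7 and 11 (log2 fold change -0.21, SE 0.11, 95% interval -0.45 to 0.02, adjusted p = 0.742), and only Celf2 -/- replicate 10 reached the Celf2 +/- range. Col26a1 was at 51.2, 49.7 and 44.6 CPM in Celf2 -/- replicates 2, 4 and 10, against 48.0, 55.8 and 56.7 CPM in Celf2 +/- replicates 6, 7 and 11 (log2 fold change -0.14, adjusted p = 0.846), with overlapping groups. Col23a1, another membrane collagen, had a log2 fold change of -0.13.

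Among the remaining members, Col8a1, a short-chain collagen of vessels and the cornea, was at 5.32, 7.47 and 7.24 CPM in Celf2 -/- replicates 2, 4 and 10, against 6.43, 10.9 and 10.7 CPM in Celf2 +/- replicates 6, 7 and 11 (log2 fold change -0.48, SE 0.22, 95% interval -0.97 to 0.01, adjusted p = 0.713), with overlapping groups. The collagens that attach to fibril surfaces had log2 fold changes of -0.0013 (Col12a1), -0.39 (Col14a1), -0.13 (Col16a1), -0.37 (Col20a1) and 0.13 (Col22a1). That of Col14a1 was 0.03 without Celf2 +/- replicate 7 and -0.66 without Celf2 +/- replicate 6. That of Col20a1 was -0.09 without Celf2 +/- replicate 11 and -0.63 without Celf2 +/- replicate 6. Col8a2 (-0.22), Col7a1 of skin anchoring fibrils (-0.24), the membrane collagen Col13a1 (-0.03) and Col28a1 (0.12) also overlapped between the groups. Col17a1, a collagen of epidermal attachment, was at 0.442 to 0.652 CPM in Celf2 -/- and 0.337 to 0.855 CPM in Celf2 +/- libraries.

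Among collagens, Celf2 +/- replicate 6 was often the lowest library and Celf2 +/- replicate 7 often the highest. Celf2 +/- replicate 6 was the lowest of the 6 libraries for 21 of 43 collagens (48.8%), against 17.3% of all genes tested. By class these were 5 of 11 fibrillar, 6 of 8 basement membrane and 10 of 24 other collagens. Celf2 +/- replicate 7 was the highest for 21 of 43, against 15.0% of all genes. Mean log2 CPM of the 43 collagens, minus its average over the libraries, was 0.23 in Celf2 +/- replicate 7 and -0.20 in Celf2 +/- replicate 6. It was -0.17 in Celf2 -/- replicate 10, so replicate 6 was not alone in being low. The summed CPM of fibrillar collagens was 550.2, 593 and 443 CPM in Celf2 -/- replicates 2, 4 and 10, against 356, 663 and 585 CPM in Celf2 +/- replicates 6, 7 and 11. The sum of basement membrane collagens was 761, 693 and 605 CPM in Celf2 -/- replicates 2, 4 and 10, against 515, 737 and 609 CPM in Celf2 +/- replicates 6, 7 and 11. That of the other collagens was 442, 433 and 401 CPM in Celf2 -/- replicates 2, 4 and 10, against 405, 522 and 473 CPM in Celf2 +/- replicates 6, 7 and 11. In each class the Celf2 +/- libraries spread more widely than the Celf2 -/- libraries, and the groups overlapped.

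Markers of meningeal fibroblasts were, like the type I and III chains, lowest in Celf2 +/- replicate 6. The list held 12 genes, all tested and none at 0, and Celf2 +/- replicate 6 was the lowest library for 11 of them. Their summed level was 202 to 227 CPM in Celf2 -/- and 171 to 269 CPM in Celf2 +/- libraries. Aldh1a2, a retinoic acid enzyme of the meninges, was at 16.1, 19.1 and 14.6 CPM in Celf2 -/- replicates 2, 4 and 10, against 10.1, 22.3 and 20.7 CPM in Celf2 +/- replicates 6, 7 and 11. Dcn, a proteoglycan that binds collagen fibrils, was at 25.5, 26.9 and 23.4 CPM in Celf2 -/- replicates 2, 4 and 10, against 15.0, 32.3 and 30.3 CPM in Celf2 +/- replicates 6, 7 and 11. Col1a2 over Aldh1a2 per kb ranged 1.15-fold and Col1a2 over Dcn 1.21-fold across libraries in which Col1a2 itself ranged 2.51-fold. Other ratios ranged more widely, 1.95-fold for Col1a2 over Col4a1, 2.03-fold for Col3a1 over Col4a1 and 1.56-fold for Col4a1 over the endothelial Cldn5. These pairs were chosen after the values were seen, and the part of meningeal content in the collagen values was not tested.

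**Figure D4:**
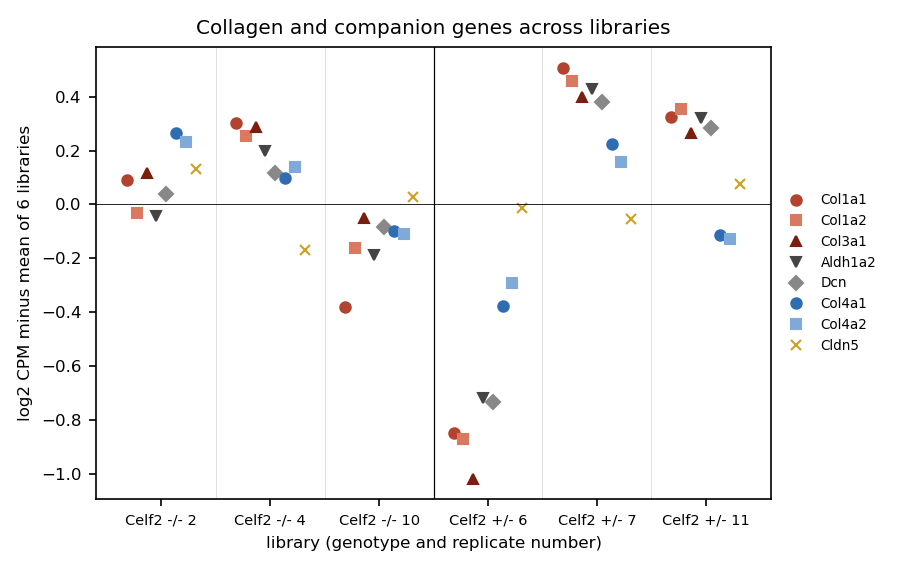
Log2 CPM minus the mean of the 6 libraries for 8 genes, Celf2 -/- libraries left and Celf2 +/- right. Col1a1, Col1a2 and Col3a1 lie lowest in Celf2 +/- replicate 6 with the meningeal Aldh1a2 and the fibril partner Dcn, Col4a1 and Col4a2 move less, and the endothelial Cldn5 stays within about 0.2 of its mean.

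Markers of vessel cells were summed in the same way. The 12 endothelial markers summed to 295 to 346 CPM in Celf2 -/- and 285 to 320.3 CPM in Celf2 +/- libraries, and Celf2 +/- replicate 6 was the lowest for 3 of 12. Kdr, a receptor for VEGF, was at 58.9, 59.3 and 42.5 CPM in Celf2 -/- replicates 2, 4 and 10, against 41.1, 42.7 and 38.9 CPM in Celf2 +/- replicates 6, 7 and 11 (log2 fold change 0.39, unadjusted p = 0.0115, edgeR adjusted p = 0.570), with overlapping groups. The 10 pericyte and smooth muscle markers summed to 219 to 264 CPM in Celf2 -/- and 219 to 272 CPM in Celf2 +/- libraries. For 5 of these 10 the lowest library was Celf2 +/- replicate 6, against 17.3% of all genes tested. Choroid plexus markers, 8 of 8 tested, summed to 555 to 813 CPM in Celf2 -/- and 581 to 857 CPM in Celf2 +/- libraries. For 4 of these 8 the lowest library was Celf2 +/- replicate 6. As deviations of mean log2 CPM from the average of the libraries, meningeal markers lay at 0.11, 0.01 and -0.12 in Celf2 -/- replicates 2, 4 and 10, against -0.69, 0.35 and 0.34 in Celf2 +/- replicates 6, 7 and 11. Endothelial markers lay at 0.12, -0.03 and -0.06 in Celf2 -/- replicates 2, 4 and 10, against -0.14, 0.11 and 0.00 in Celf2 +/- replicates 6, 7 and 11, and pericyte and smooth muscle markers at 0.08, 0.10 and -0.18 in Celf2 -/- replicates 2, 4 and 10, against -0.22, 0.26 and -0.03 in Celf2 +/- replicates 6, 7 and 11. Fibrillar collagens lay at 0.10, 0.09 and -0.23 in Celf2 -/- replicates 2, 4 and 10, against -0.26, 0.26 and 0.04 in Celf2 +/- replicates 6, 7 and 11, and basement membrane collagens at 0.17, 0.03 and -0.04 in Celf2 -/- replicates 2, 4 and 10, against -0.28, 0.17 and -0.05 in Celf2 +/- replicates 6, 7 and 11. These deviations weigh every gene of a list alike. By them, fibrillar collagens and pericyte and smooth muscle markers were nearly as low in Celf2 -/- replicate 10 as in Celf2 +/- replicate 6. The meningeal markers were not. By summed CPM the fibrillar collagens lay further apart, at 443 in Celf2 -/- replicate 10 and 356 in Celf2 +/- replicate 6. Col1a2 was at 113 and 69.2 CPM in these libraries, and Col3a1 at 114 and 58.5 CPM. In Celf2 +/- replicate 11 the deviation of the meningeal markers was high. Those of the fibrillar collagens, the pericyte and smooth muscle markers and the basement membrane collagens were small. The summed CPM of fibrillar collagens was 585 in that library, against 356 to 663 over all libraries. Col1a2 was at 162 CPM there, against 69.2 to 174 CPM over all libraries. The part of vessel cell content in the collagen values was not tested. The heat map of lists gives these deviations for further lists.

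**Figure D5:**
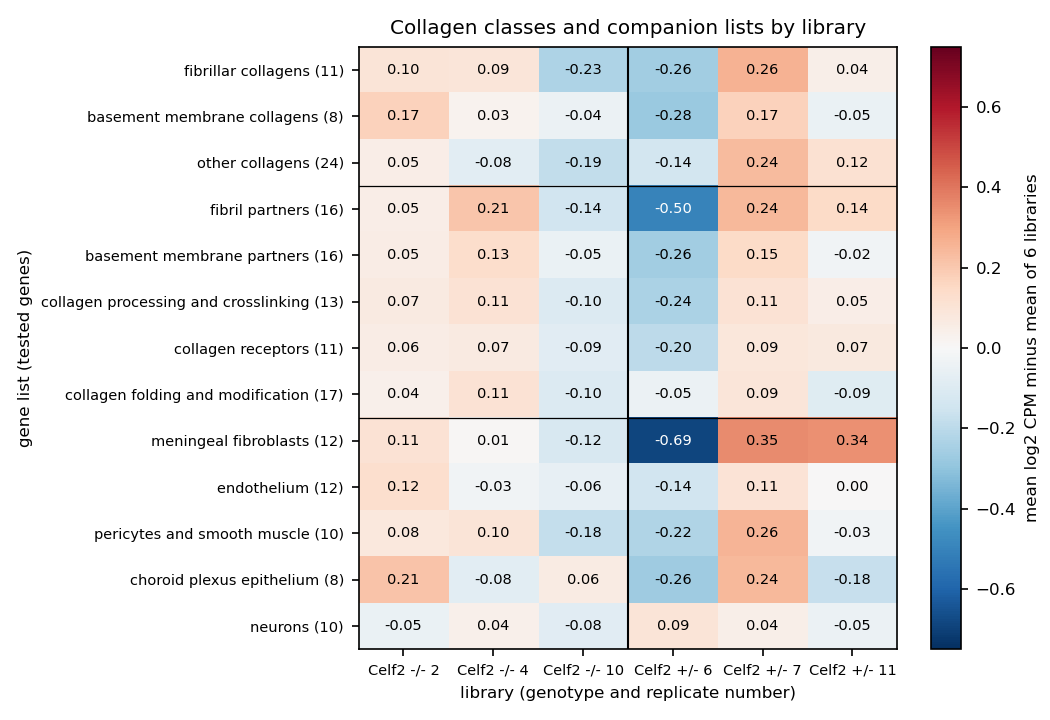
Mean log2 CPM of each list minus its mean over the 6 libraries (colour and printed value), Celf2 -/- libraries left and Celf2 +/- right, with the number of tested genes in brackets. Celf2 +/- replicate 6 is lowest for meningeal fibroblasts (-0.69) and fibril partners (-0.50), while neuronal genes stay within 0.1.

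Leaving out Celf2 +/- replicate 6 moved many chains to lower values in Celf2 -/- libraries. This follows in part from the choice of library, which was the lowest for 21 of 43 collagens. At an unadjusted p of 0.05, 8 of 44 collagens then had lower values in Celf2 -/- libraries and 0 higher. Over all genes in that fit, 2.31% were lower. The 8 were Col8a1, Col6a2, Col11a2, Col1a2, Col6a1, Col9a2, Col14a1 and Col20a1. None of the 8 passed adjustment. Col1a2 then had a log2 fold change of -0.37 (unadjusted p = 0.00938, edgeR adjusted p = 0.924), against -0.06 with all libraries. Col6a2 was at -0.44, and Col3a1 turned to -0.21. Without Celf2 +/- replicate 7 the signs of type I turned the other way, with Col1a1 at 0.18 and Col1a2 at 0.16.

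Genes of the hindbrain and spinal cord also differed between the libraries. The 6 tested Hox genes of the hindbrain and spinal cord list, out of 8, summed to 2.62 to 6.01 CPM in Celf2 -/- and 9.66 to 108 CPM in Celf2 +/- libraries, and Celf2 +/- replicate 7 was the highest for 6 of 6. Of the untested, Hoxb4 had 212 and Hoxb5 1295 counts in that library and at most 30 in any other. Skeletal muscle genes, 5 of 7 tested, summed to 8.16 to 8.92 CPM in Celf2 -/- and 9.31 to 11.3 CPM in Celf2 +/- libraries. Neither sum overlapped between the genotypes, as was true of Col11a2, Col9a2, Col6a6 and Col24a1, which were lower in Celf2 -/- libraries. Col2a1 and Col19a1 did not overlap either, but were higher in Celf2 -/- libraries. Over all genes tested, 6.47% were lower and 6.21% higher without overlap. The part of hindbrain, spinal cord and muscle content in these collagen values was not tested. Without Celf2 +/- replicate 7, log2 fold changes were -0.33 for Col11a2, -0.23 for Col9a2, -0.81 for Col6a6 and -0.26 for Col24a1. In the same fit they were 0.07 for Col2a1 and 0.21 for Col19a1. That fit keeps Celf2 +/- replicates 6 and 11, whose Hox sums of 17.1 and 9.66 CPM also lay above every Celf2 -/- library. Of 6 epidermal markers 3 were tested, summing to 38.8 to 42.0 CPM in Celf2 -/- and 39.0 to 48.7 CPM in Celf2 +/- libraries, and the defining Krt5 had at most 1 count in any library. Neuronal markers, 10 of 10 tested, summed to 5887 to 6262 CPM in Celf2 -/- and 5752 to 6538 CPM in Celf2 +/- libraries.

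The enzymes that fold and modify collagen chains had small fold changes. Of 19 genes 17 were tested, 11 with positive and 6 with negative fold changes and a median of 0.07, and 0 had an unadjusted p under 0.05. P4hb, a subunit of the enzyme that hydroxylates proline, was at 237, 263 and 231 CPM in Celf2 -/- replicates 2, 4 and 10, against 219, 234 and 221 CPM in Celf2 +/- replicates 6, 7 and 11 (log2 fold change 0.12, adjusted p = 0.815). Ppib, an isomerase for collagen folding, had a log2 fold change of -0.09. Serpinh1, the collagen chaperone HSP47, chosen after its values were seen, was at 133, 130.0 and 76.7 CPM in Celf2 -/- replicates 2, 4 and 10, against 96.9, 125 and 78.1 CPM in Celf2 +/- replicates 6, 7 and 11 (log2 fold change 0.18). It was low in replicate 10 of the Celf2 -/- and replicate 11 of the Celf2 +/- libraries.

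Among 13 genes that trim or crosslink collagen, 8 had positive and 5 negative fold changes (median 0.11). Loxl1, a lysyl oxidase relative, was at 17.1, 13.3 and 10.8 CPM in Celf2 -/- replicates 2, 4 and 10, against 10.8, 9.90 and 9.14 CPM in Celf2 +/- replicates 6, 7 and 11 (log2 fold change 0.47, SE 0.17, 95% interval 0.09 to 0.85, adjusted p = 0.639; unadjusted p = 0.0208), higher in each Celf2 -/- library. It did not pass over all genes tested, as was true of each companion gene named here.

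Of 12 collagen receptors 11 were tested, 7 with positive and 4 with negative fold changes (median 0.06). Ddr1, a receptor tyrosine kinase for collagen, was at 129.9, 126 and 109 CPM in Celf2 -/- replicates 2, 4 and 10, against 109, 92.8 and 100.2 CPM in Celf2 +/- replicates 6, 7 and 11 (log2 fold change 0.27, SE 0.09, 95% interval 0.07 to 0.47, adjusted p = 0.581; unadjusted p = 0.0130), with groups that just overlapped. Lair1, an inhibitory collagen receptor of immune cells, was at 1.65, 1.93 and 1.67 CPM in Celf2 -/- replicates 2, 4 and 10, against 2.42, 2.29 and 2.79 CPM in Celf2 +/- replicates 6, 7 and 11 (log2 fold change -0.51, adjusted p = 0.659), lower in each Celf2 -/- library. Gp6, the collagen receptor of platelets, had 0 counts in all 6 libraries.

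Partners of the type IV net had 10 positive and 6 negative fold changes among 16 genes (median 0.14). Agrn, a heparan sulfate proteoglycan of basement membranes, was at 773, 672 and 654 CPM in Celf2 -/- replicates 2, 4 and 10, against 631, 651 and 623 CPM in Celf2 +/- replicates 6, 7 and 11 (log2 fold change 0.14, SE 0.07, 95% interval -0.02 to 0.30, adjusted p = 0.766), higher in each Celf2 -/- library. Sparc, which binds collagen, had a log2 fold change of -0.09. Celf2 +/- replicate 6 was the lowest library for 9 of these 16 genes.

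Partners of fibrils had 7 positive and 9 negative fold changes among 16 genes (median -0.02), and Celf2 +/- replicate 6 was the lowest for 13 of 16. Fbln2, a fibulin of vessel walls and basement membranes, was at 42.7, 42.0 and 32.8 CPM in Celf2 -/- replicates 2, 4 and 10, against 28.6, 34.6 and 28.8 CPM in Celf2 +/- replicates 6, 7 and 11 (log2 fold change 0.35, adjusted p = 0.630). Thbs1, a thrombospondin, was at 16.5, 22.2 and 16.8 CPM in Celf2 -/- replicates 2, 4 and 10, against 12.3, 13.4 and 16.1 CPM in Celf2 +/- replicates 6, 7 and 11 (log2 fold change 0.41, adjusted p = 0.639). Of 12 genes for collagen breakdown and its inhibitors, 10 were tested, 5 in each direction (median 0.02). Mmp16, a membrane-bound metalloproteinase, was at 41.3, 43.3 and 42.8 CPM in Celf2 -/- replicates 2, 4 and 10, against 36.3, 33.3 and 34.4 CPM in Celf2 +/- replicates 6, 7 and 11 (log2 fold change 0.29, adjusted p = 0.535), and Timp4, an inhibitor of such enzymes, at 8.47, 13.1 and 13.0 CPM in Celf2 -/- replicates 2, 4 and 10, against 15.4, 18.1 and 13.6 CPM in Celf2 +/- replicates 6, 7 and 11 (log2 fold change -0.45, adjusted p = 0.656).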

How the data were processed

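The authors deposited whole-number read counts per gene symbol for 6 libraries, with a gene length in bases. The labels' protocols give TRIzol extraction and a stranded total-RNA kit, while the molecule field and design text name poly(A) RNA. Per the submitters' processing notes, which name builds hg19 and mm9, the tools included STAR, cutadapt, CASAVA and Picard, with bedtools and MACS2; no roles are stated. How reads were counted, and by which strand, is not given in the sources used here. Reads of overlapping or similar genes are therefore uncertain; 23 of the 44 collagens overlap another annotated gene.

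Genes were kept by edgeR's filterByExpr (15925) and tested together by edgeR's quasi-likelihood method (version 4.0.16, R 4.3.3) with TMM factors and robust fitting. Adjusted p-values follow Benjamini-Hochberg, with calls at 0.05. Each SE is the size of the log2 fold change divided by the root of its F value. CPM use TMM-scaled totals, and means are given ± SD. List deviations use log2 CPM with a prior count of 2. Every pair of libraries differed by more than sampling noise, with a chi-square of at least 11.2 per gene. The biological coefficient of variation was 13.9%.

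Members and lists were chosen with earlier results of these data known. Named in full were the 4 highest collagens per length in each class and those with an unadjusted p under 0.05 or, at a mean of 50 counts, no overlap. From companion lists up to 4 genes with an unadjusted p under 0.05 and 50 counts were named, otherwise the 2 most abundant, and Adgrg1. Other genes, the ratios and the counts by library were chosen after their values were seen. Names, neighbours and promoters come from RefSeq GRCm38.p6, matched by symbol (44 of 44 genes, 35 promoters), which is not the build in the notes. Alternatives were other scalings and filters, DESeq2 1.42.0, limma-voom (limma 3.58.1), removal of structural RNAs and leaving out each library.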

Additional observations from a re-analysis of the deposited data

How the results depend on the processing

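No collagen was called in any of the 14 alternatives. The count of all genes called, 1, was 0 with DESeq2 size factors, a CPM minimum, limma-voom or structural RNAs removed, 2 with upper-quartile factors or library size alone, 3 with no low-count filter, 62 with the DESeq2 Wald test and 0 to 4 without single libraries. Collagens with an unadjusted p under 0.05, 3, numbered 5 with upper-quartile factors, 6 with library size alone and 2 to 8 without single libraries. The background moved as well. In the main setting 2.93% of all genes were lower at this p. That share was 3.71% under upper-quartile scaling and 4.66% when only library size was used. Without single libraries, 3.7% to 9.69% of all genes had such a p in either direction, against 7.06% in the main setting. Whether the collagen counts moved more than these shares was not tested. Collagens with a negative fold change, 29, numbered 22 with limma-voom, 34 with library size alone and 19 to 33 without single libraries. These 2 counts were chosen after seeing the data, and the cause of the shifts was not tested. Lower genes made up 41.5% of all with an unadjusted p under 0.05; scaling by library size alone gave 83.3%, and upper-quartile scaling 52.7%.

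Some class medians changed sign. With all libraries kept, the fibrillar median was 0.03 with limma-voom, and the basement membrane median was -0.02 with library size alone. The median over all genes with library size alone was -0.086. Without single libraries the fibrillar median lay at -0.14 to 0.15, the basement membrane median at -0.01 to 0.23 and that of the others at -0.21 to -0.06. Signs turned for Col15a1 with library size alone (-0.056, above the median of all genes) and for Col18a1 (0.034), Col1a2 (0.060) and Col1a1 (0.032) with limma-voom. Without single libraries the fold change ran over -0.39 to 0.18 for Col1a1, -0.37 to 0.16 for Col1a2, -0.21 to 0.36 for Col3a1, -0.22 to 0.15 for Col11a1, -0.11 to 0.14 for Col15a1 and -0.22 to 0.13 for Col18a1. No paired analysis was possible because the groups share no replicate number.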

Other observations

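Several collagen genes lie next to each other in the genome. In the GRCm38.p6 annotation 8 pairs of collagens are direct neighbours among protein-coding genes. Col4a1 and Col4a2 had log2 fold changes of 0.16 and 0.17, and Col3a1 and Col5a2 0.12 and 0.08. Col6a2 and Col6a1 had -0.19 and -0.15, and Col4a6 and Col4a5 0.03 and 0.11. The pairs Col9a1 and Col19a1 (-0.07 and 0.22) and Col4a4 and Col4a3 (0.27 and -0.05) differed in sign. In the run of Col6a6, Col6a5 and Col6a4 the values were -0.81, -0.40 and -0.09. None of these genes passed the test.

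Of the 35 collagens with a RefSeq promoter, 21 held the GC box GGGCGG on either strand in the 250 bases before the start, against 32.9% of 27025 genes. TATAAA was held by 5 of 35, against 13.0%, and CCAAT by 12 of 35, against 34.5%. These are letter matches and were not tested.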
